A study of Mus musculus with 20 samples.

Results

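The calcineurin and NFAT pathway was followed through 9 genes of the 48795 in the table. They are Rcan1 and Rcan2, Nfatc1, Nfatc2, Nfatc3 and Nfatc4, and Ppp3ca, Ppp3cb and Ppp3r1. The genes were listed by name, with no threshold on their values, and all 9 passed the filter on low values. Each of them is present in 2 copies in every heart measured, whatever its genotype.

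Whole hearts of mouse embryos were sequenced at E13.5, shortly before the septa of the heart are complete, in 20 libraries that fall into 4 groups of 5. Dp3Tyb hearts carry Dp(16Mir802-Zbtb21)3TybEmcf, a tandem duplication of part of chromosome 16 that models a segment of human chromosome 21. Ts1Rhr hearts carry Dp(16Cbr1-Fam3b)1Rhr, a shorter duplication that lies inside the first. Each strain has its own wild-type (WT) littermates, called here WT-Dp3Tyb and WT-Ts1Rhr, and a strain with its littermates is called a cohort. Heart defects are described for Dp3Tyb and not for Ts1Rhr, yet 2 of the Ts1Rhr hearts, replicates 1 and 2, are labelled as having them. Without these 2 hearts none of 14652 genes passed the threshold in Ts1Rhr, so that fit says nothing about the members in particular. They are also the 2 Ts1Rhr libraries with over 10% mitochondrially encoded reads (11.6% and 13.1%), so label and share cannot be told apart. Dyrk1a, which encodes an NFAT kinase, is in 3 copies in both strains. Rcan1 lies 2.1 Mb from Dyrk1a on chromosome 16, outside both duplications.

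Calcineurin is a phosphatase switched on by calcium and calmodulin. Its catalytic subunit is encoded by Ppp3ca or Ppp3cb, and its regulatory, calcium-binding subunit by Ppp3r1. Active calcineurin removes phosphates from the NFAT transcription factors NFATC1 to NFATC4, which then enter the nucleus, and kinases such as DYRK1A put phosphates back and send them out again. RCAN1 and RCAN2 bind calcineurin and restrain it, and a short form of Rcan1 is itself switched on by NFAT in a feedback loop. In the embryonic heart NFATC1 acts in the endocardium where the valves form. The comparison of the 4 groups asks whether transcripts of this pathway differ in hearts with 3 copies of its kinase.

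Promoter sequences are shown for Rcan1, whose starts differ in the NFAT core, and for Nfatc2, the member with the smallest p-value. The starts of Nfatc2, Nfatc3 and Rcan2 differ in the core as well. NFAT proteins bind DNA with the core GGAAA, which reads TTTCC on the opposite strand. RefSeq start sites on GRCm38.p6 gave 12 windows for 7 of the 9 members, each covering the 250 bases before a start, and none for Ppp3ca and Nfatc1. The sequences below run 5′ to 3′ on the strand of the gene, and capitals mark GGAAA or TTTCC. The windows are chr16:92466170-92466419 and chr16:92400079-92400328 for Rcan1, and chr2:168601658-168601907 and chr2:168590366-168590615 for Nfatc2, all on the minus strand.
Rcan1, upstream start: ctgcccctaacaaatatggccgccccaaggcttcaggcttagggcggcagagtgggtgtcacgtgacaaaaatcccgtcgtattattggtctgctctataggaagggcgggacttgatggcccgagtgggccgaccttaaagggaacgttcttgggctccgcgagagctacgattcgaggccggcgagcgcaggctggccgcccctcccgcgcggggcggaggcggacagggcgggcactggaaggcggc
Rcan1, internal start: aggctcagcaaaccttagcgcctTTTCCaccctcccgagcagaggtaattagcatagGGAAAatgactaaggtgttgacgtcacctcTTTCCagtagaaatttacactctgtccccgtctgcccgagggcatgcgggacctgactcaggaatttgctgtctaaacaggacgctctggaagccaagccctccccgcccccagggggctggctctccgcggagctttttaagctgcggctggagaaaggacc
Nfatc2, upstream start: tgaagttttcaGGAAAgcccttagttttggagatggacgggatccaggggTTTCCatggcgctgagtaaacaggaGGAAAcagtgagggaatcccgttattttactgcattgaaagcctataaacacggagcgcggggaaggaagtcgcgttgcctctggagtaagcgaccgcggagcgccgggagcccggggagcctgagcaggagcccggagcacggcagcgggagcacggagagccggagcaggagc
Nfatc2, internal start: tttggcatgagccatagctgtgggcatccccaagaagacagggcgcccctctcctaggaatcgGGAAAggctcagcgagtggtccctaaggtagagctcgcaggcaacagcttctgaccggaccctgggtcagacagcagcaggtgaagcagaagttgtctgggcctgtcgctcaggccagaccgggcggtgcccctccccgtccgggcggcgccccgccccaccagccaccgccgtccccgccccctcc

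The upstream Rcan1 window held 0 core matches and the window of the internal start held 3. Nfatc2 held 3 before its upstream start and 1 before the internal one. The windows of Ppp3cb and Nfatc4 held 3 each, that of Ppp3r1 held 0, the 2 of Nfatc3 held 1 and 0, and the 3 of Rcan2 held 2, 0 and 0. Over all 32851 promoter windows of this length 55.6% held at least 1 match and 6.39% held at least 3. A match is a description of the letters and not a binding site. The deposited values are summed per gene, so transcripts from the starts of Rcan1 cannot be told apart in the results that follow.

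Libraries held between 6.60 and 19.6 M reads (mega, M). Mitochondrially encoded transcripts took 4.85% to 19.5% of the reads, with over 10% in 1 WT-Dp3Tyb, 1 Dp3Tyb, 3 WT-Ts1Rhr and 2 Ts1Rhr libraries. All 12 cardiomyocyte, 12 endothelial and endocardial and 12 valve mesenchyme markers were expressed above the filter. So were 9 of 10 lung and foregut markers, whose summed level per library ran from 106 to 1094. Values below are normalised read counts, that is reads divided by a size factor for the library, and errors are SD with n = 5 unless stated. In whole hearts, fewer cells of a type and less RNA per cell cannot be told apart.

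Per kilobase of the canonical transcript, Rcan1 had the highest level of the 9 genes and Nfatc2 the lowest (n = 20 hearts). Rcan1 stood at 847 ± 81.2 normalised reads per kilobase, followed by Ppp3r1 at 602 ± 24.3, Rcan2 at 443 ± 89.9, Ppp3ca at 363 ± 30.8 and Ppp3cb at 336 ± 17.6. The NFAT genes were lower, with Nfatc3 at 229 ± 20.9, Nfatc1 at 202 ± 23.6, Nfatc4 at 110.3 ± 27.3 and Nfatc2 at 59.7 ± 6.35. Ranges over the 20 hearts did not overlap between Rcan1 and Ppp3r1, between Ppp3cb and Nfatc3, or between Nfatc1 and Nfatc4, and overlapped between the other neighbours in this order. With the length of all exons in place of the canonical transcript, Ppp3r1 came before Rcan1, Ppp3cb before Ppp3ca and Nfatc1 before Nfatc3.

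**Figure D1:**
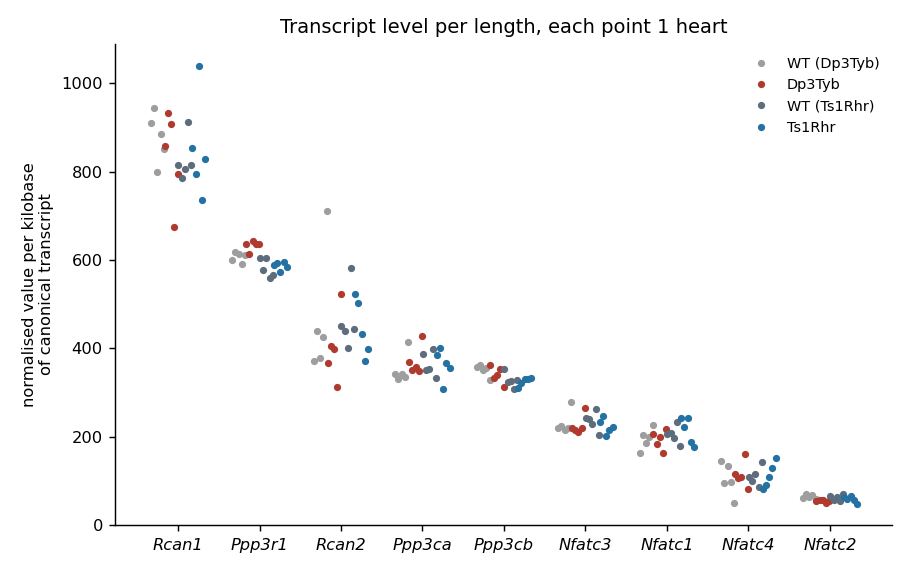
Normalised reads per kilobase of canonical transcript (y axis) for the 9 genes (x axis, ordered by mean), with 1 point per heart coloured by group. Rcan1 lies highest and Nfatc2 lowest, and the 4 groups of each gene lie over the same range or close to it.

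Within families the levels per kilobase of canonical transcript were uneven, and the order of the group means was the same in all 4 groups. In WT-Dp3Tyb, though, Ppp3ca and Ppp3cb were nearly equal (46.50% and 46.46% of the catalytic subunit transcripts). With the length of all exons the orders of Ppp3ca and Ppp3cb and of Nfatc3 and Nfatc1 turn round, as given above. Nfatc3 made up 38.1% ± 2.85 of the summed NFATC1 to NFATC4 transcript level per kilobase and Nfatc1 33.6% ± 3.28, while Nfatc4 made up 18.4% ± 4.79 and Nfatc2 9.94% ± 1.09 (SD, n = 20). Of the 3 catalytic subunit genes, Ppp3ca took 48.4% ± 2.75 and Ppp3cb 44.9% ± 2.88, with 6.73% ± 1.05 for Ppp3cc (SD, n = 20). Rcan1 took 62.4% ± 3.57 of the Rcan transcripts, Rcan2 32.4% ± 4.38 and Rcan3 5.19% ± 1.11 (SD, n = 20). The spread between hearts differed between genes too. Over the 20 hearts the coefficient of variation was 24.8% for Nfatc4 and 20.3% for Rcan2, and 4.04% for Ppp3r1, which was among the steadiest genes of the table (percentile 0.619 of the coefficient of variation over 15348 genes).

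None of the 9 genes passed the threshold of an adjusted p-value of 0.05 in either strain against its littermates (limma, Benjamini-Hochberg over all genes tested). Dyrk1a, in 3 copies, did not pass in these fits either (adjusted p = 0.478 in Dp3Tyb and 0.415 in Ts1Rhr). A count of 0 therefore does not by itself exclude a change of that size, and the intervals given below set the limit. In Dp3Tyb 0 of 9 passed, where 0.0542% of all 14763 genes did, and in Ts1Rhr 0 of 9 passed, where 0.0269% of 14867 did. DESeq2 and edgeR on the recovered reads called 0 of 9 in both strains as well. At an unadjusted p-value under 0.05, 1 of 9 was lower in Dp3Tyb (2.8% of all genes in either direction), and this was Nfatc2. In Ts1Rhr 0 of 9 had such a p-value (5.52% of all genes). The median log2 fold change of the 9 genes was -0.03 in Dp3Tyb and -0.0085 in Ts1Rhr, against -0.0027 and -0.0016 over all genes tested.

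**Figure D2:**
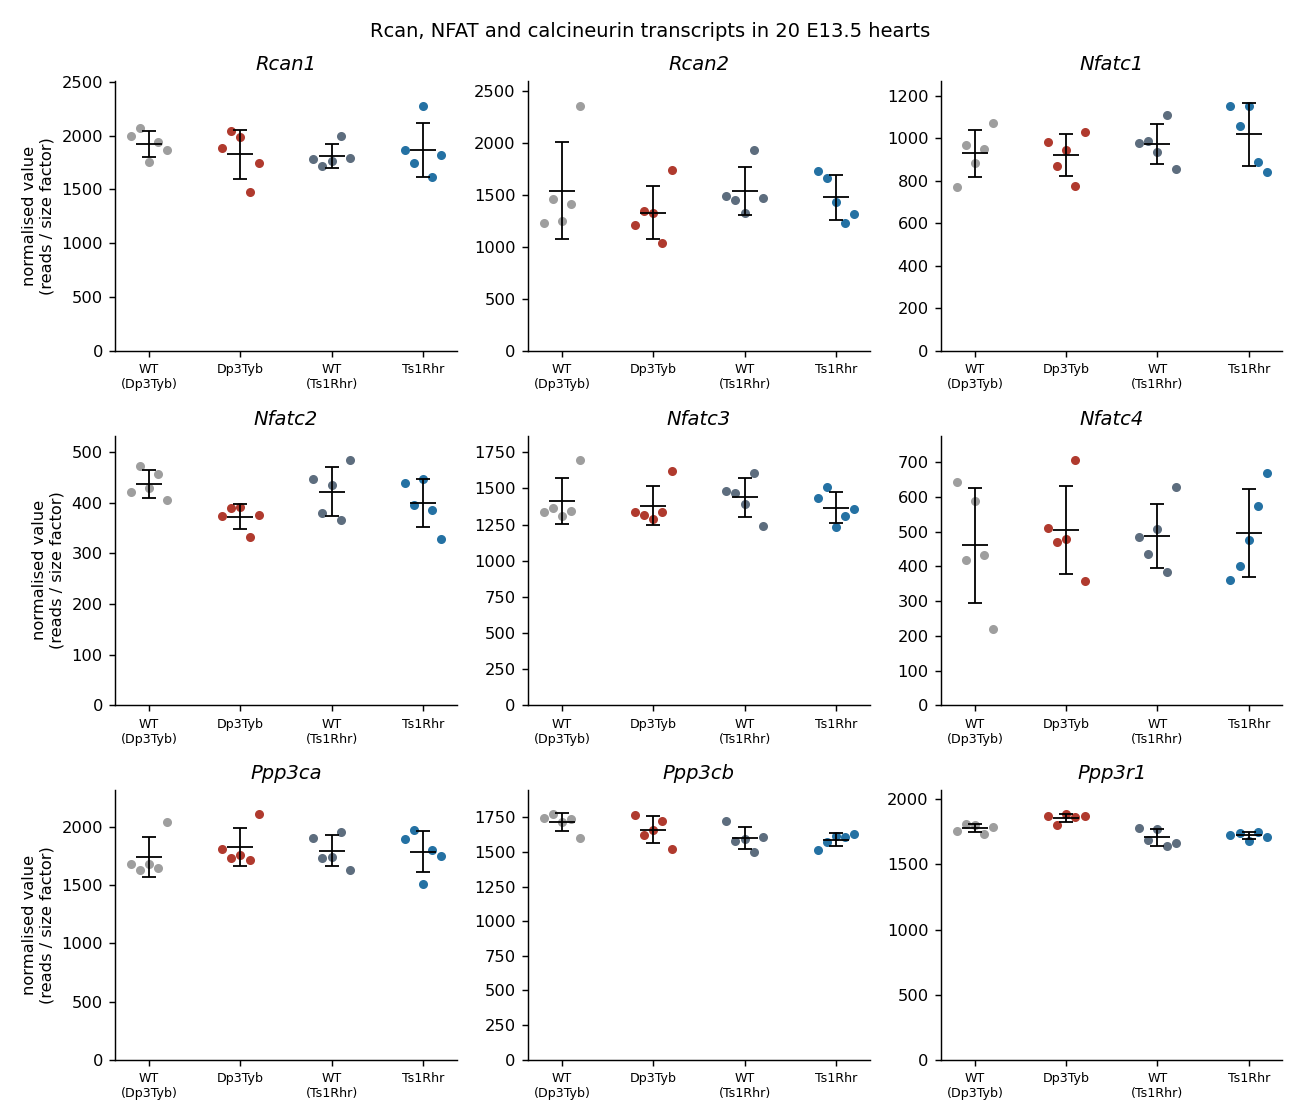
Normalised read counts (y axis, from 0) of the 9 genes in each of the 20 hearts, with 5 points per group in the order of the replicate numbers and a bar for mean ± SD. For 8 genes the 5 mutant hearts overlap their 5 littermates in both cohorts, and for Nfatc2 the Dp3Tyb hearts (332 to 392) lie below WT-Dp3Tyb (405 to 473).

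Rcan1 (ENSMUSG00000022951, chromosome 16, 92391951 to 92466169, GRCm38.p6 as for all positions here), which encodes the calcineurin inhibitor, did not differ between mutant and WT hearts beyond the spread between hearts. WT-Dp3Tyb replicates 1 to 5 had 1995, 2069, 1754, 1943 and 1864 normalised reads and Dp3Tyb hearts 1882, 2044, 1992, 1478 and 1741. WT-Ts1Rhr hearts had 1785, 1721, 1766, 2000.1 and 1789 and Ts1Rhr hearts 1871, 1741, 2279.6, 1615 and 1818. The groups overlapped in both cohorts, and the lowest and the highest value of all 20 were both from mutant hearts. Dp3Tyb hearts had a log2 fold change of -0.082 ± 0.092 (SE) and Ts1Rhr hearts one of 0.034 ± 0.087 (SE). Without Dp3Tyb replicate 4, the heart with 1478 normalised reads, the Dp3Tyb value was -0.0081, and without replicate 2 of Dp3Tyb it was -0.12. The 95% intervals ran from -0.28 to 0.12 and from -0.16 to 0.22 on the log2 scale, both below 1.5-fold higher, the ratio of 3 copies to 2.

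Rcan2 (ENSMUSG00000039601, chromosome 17, 43801352 to 44039516), the related inhibitor gene, varied widely within every group. Its values were 1226, 1456, 1250.4, 1406 and 2358 in WT-Dp3Tyb and 1213, 1343, 1320.4, 1033 and 1734 in Dp3Tyb. They were 1489, 1454, 1327, 1929 and 1473 in WT-Ts1Rhr and 1731, 1663, 1433, 1227 and 1319 in Ts1Rhr. In 3 of the 4 groups the highest value came from the library with the largest mitochondrial share of its group. The log2 fold change was -0.19 ± 0.18 (SE) in Dp3Tyb, with an interval from -0.59 to 0.22, and -0.058 ± 0.12 (SE) in Ts1Rhr. Without WT-Dp3Tyb replicate 5 the Dp3Tyb value was -0.024, without Dp3Tyb replicate 5 it was -0.29, and with the lung and foregut score as a term -0.0089. It did not pass under any of 22 alternatives. The Dp3Tyb interval reached past 1.5-fold lower, so a change of that size could not be told from none in that fit. With the mitochondrial share as a term the value was -0.17 (interval -0.31 to -0.025, unadjusted p = 0.0241, adjusted p = 0.375, the lowest of the 22), and that interval stayed within 1.5-fold.

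Nfatc1 (ENSMUSG00000033016, chromosome 18, 80606205 to 80713071), the NFAT gene of the endocardium and valves, had similar values in all 4 groups. Hearts of WT-Dp3Tyb had 769.7, 971, 884, 949.6 and 1072 and of Dp3Tyb 982, 872, 948, 778 and 1032. Hearts of WT-Ts1Rhr had 978, 987, 938, 1110.1 and 854 and of Ts1Rhr 1151, 1058, 1154, 888 and 841. All groups overlapped, and the log2 fold change was -0.0092 ± 0.10 (SE) in Dp3Tyb (95% interval -0.23 to 0.22) and 0.058 ± 0.10 (SE) in Ts1Rhr (-0.17 to 0.28). With the lung and foregut score as a term the values were 0.12 and -0.072, so the sign turned in both strains. Summed endothelial and endocardial markers lay between 21286 and 25078 in Dp3Tyb, between 22251 and 25161 in WT-Dp3Tyb, between 23304 and 25339.5 in Ts1Rhr, and between 22381 and 24416 in WT-Ts1Rhr. A score is the mean log2 value of a marker list. Over the 20 libraries, with groups centred on their own means, Pearson's r of Nfatc1 with the endothelial score was 0.31. It was 0.93 with the cardiomyocyte and 0.61 with the valve mesenchyme score. For the neuron, lung and foregut, macrophage, erythroid and epicardium scores it ran from -0.76 to -0.059. The part of cell content in these values was not tested beyond fits with a score as a term.

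Nfatc2 (ENSMUSG00000027544, chromosome 2, 168476410 to 168601657), best known from T cells and also expressed in muscle, was the one member whose Dp3Tyb and WT-Dp3Tyb values did not overlap. WT-Dp3Tyb hearts had 421, 473, 428, 458 and 405 normalised reads and Dp3Tyb hearts 373, 389, 392, 332 and 376, so that all 5 Dp3Tyb hearts lay below all 5 littermates. The means were 437 ± 27.7 and 373 ± 24.0, a log2 fold change of -0.23 ± 0.074 (SE). In limma its unadjusted p-value was 0.00986 and its adjusted p-value 0.99996. Of all genes tested in this cohort 0.975% did not overlap between the groups in either direction. The adjusted p-value was between 0.0972 and 0.99997 over 22 alternatives, and the log2 fold change was between -0.26 and -0.19. Exons of Nfatc2 overlap a long non-coding RNA gene on the opposite strand that has no value of its own. Use of strand is not given, so some of the Nfatc2 reads could belong to that gene.

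In the Ts1Rhr cohort Nfatc2 had 446, 379.7, 435, 366 and 484 in WT-Ts1Rhr and 438, 396, 447, 386 and 329 in Ts1Rhr. These values overlapped, as did those of the other 8 members, where 1.12% of all genes did not. Its log2 fold change was -0.081 ± 0.10 (SE). It was -0.26 (adjusted p = 0.996) without the 5 libraries of this cohort that had over 10% mitochondrial reads. That fit of 2 WT-Ts1Rhr and 3 Ts1Rhr hearts also leaves out both hearts labelled with heart defects. Without Ts1Rhr replicate 5 the log2 fold change was -0.014 (adjusted p = 0.980). The values -0.26 and -0.014 were the lowest and the highest over 23 alternatives, none of which passed. Summed macrophage markers lay between 1562 and 1929 in Dp3Tyb against 1127 to 1781 in WT-Dp3Tyb, lung and foregut markers between 284 and 1094 against 106 to 769.7, and neuron and ganglion markers between 272 and 538 against 148 to 376. The part of these differences in the Nfatc2 values was not tested beyond a fit with the lung and foregut score as a term. That fit gave -0.19 in Dp3Tyb and -0.20 in Ts1Rhr (limma, unadjusted p = 0.0886, adjusted p = 0.985 in Ts1Rhr).

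Nfatc3 and Nfatc4, the other NFAT genes, did not separate the groups. Nfatc3 (ENSMUSG00000031902, chromosome 8, 106058818 to 106130537) was 1413 ± 160.2 in WT-Dp3Tyb, 1382 ± 137 in Dp3Tyb, 1439 ± 134 in WT-Ts1Rhr and 1368 ± 107 in Ts1Rhr, with log2 fold changes of -0.030 ± 0.090 (SE) and -0.071 ± 0.079 (SE). Its exons overlap those of Esrp2 on the opposite strand, which reached at most 73.0 normalised reads. Nfatc4 (ENSMUSG00000023411, chromosome 14, 55824795 to 55833943) had the widest spread. Its values were 643, 417, 589, 432 and 220.2 in WT-Dp3Tyb and 509, 469.5, 479, 706 and 358 in Dp3Tyb. They were 484, 436, 508, 383 and 629 in WT-Ts1Rhr and 359, 402, 476, 573 and 667 in Ts1Rhr. In Dp3Tyb the log2 fold change was 0.19 ± 0.27 (SE), with an interval from -0.41 to 0.78, so that a level 1.5-fold higher could not be told from no difference there. With the mitochondrial share as a term it was 0.16, with an interval from -0.18 to 0.49, within 1.5-fold. Without WT-Dp3Tyb replicate 5, the library with 220.2 normalised reads, the log2 fold change was -0.054.

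The 3 calcineurin subunit genes had the lowest coefficients of variation of the 9, with 4.04% for Ppp3r1 and 5.23% for Ppp3cb over 20 hearts, and Ppp3ca after them. Ppp3ca (ENSMUSG00000028161, chromosome 3, 136669714 to 136937727), a catalytic subunit, was 1738 ± 172 in WT-Dp3Tyb and 1824 ± 162 in Dp3Tyb, and 1793 ± 134 in WT-Ts1Rhr and 1786 ± 176 in Ts1Rhr. Ppp3cb (ENSMUSG00000021816, chromosome 14, 20499364 to 20546573), the other one, was 1714 ± 65.3 and 1659.6 ± 96.1, and 1600.1 ± 81.0 and 1588 ± 46.6, in the same order. Log2 fold changes were 0.071 ± 0.083 (SE) and -0.0085 ± 0.081 (SE) for Ppp3ca in Dp3Tyb and Ts1Rhr, and -0.048 ± 0.060 (SE) and -0.010 ± 0.055 (SE) for Ppp3cb. Neither gene passed in either cohort. Exons of Ppp3ca overlap a long non-coding RNA gene on the opposite strand that has no value of its own. With the mitochondrial share as a term Ppp3ca in Dp3Tyb was 0.080, with an interval from 0.0036 to 0.16 that lies above 0 (unadjusted p = 0.0414, adjusted p = 0.436), and over 22 alternatives it ran from 0.018 without Dp3Tyb replicate 5 to 0.13 without WT-Dp3Tyb replicate 5.

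Ppp3r1 (ENSMUSG00000033953, chromosome 11, 17159298 to 17200380), the regulatory subunit, had 1759.7, 1814, 1802, 1734 and 1791 in WT-Dp3Tyb and 1870.0, 1801, 1884, 1868 and 1869.9 in Dp3Tyb. Of the 5 Dp3Tyb hearts 4 lay above all littermates and replicate 2 lay among them. The log2 fold change was 0.062 ± 0.048 (SE) (adjusted p = 0.99996), which is small beside the fold of an extra copy. In the Ts1Rhr cohort values ran from 1640.3 to 1777 in WT-Ts1Rhr and from 1681 to 1749 in Ts1Rhr. Ppp3r1 shares exon sequence with Dnaaf10 on the same strand, which reached at most 331 normalised reads, so some of its reads could belong to that gene.

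The width of the intervals sets what could have been seen. In Dp3Tyb the 95% interval of the change lay within 1.2-fold in either direction for 5 of the 9 genes and within 1.5-fold for 7, the exceptions being Rcan2 and Nfatc4. In Ts1Rhr it lay within 1.2-fold for 5 and within 1.5-fold for all 9.

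**Figure D3:**
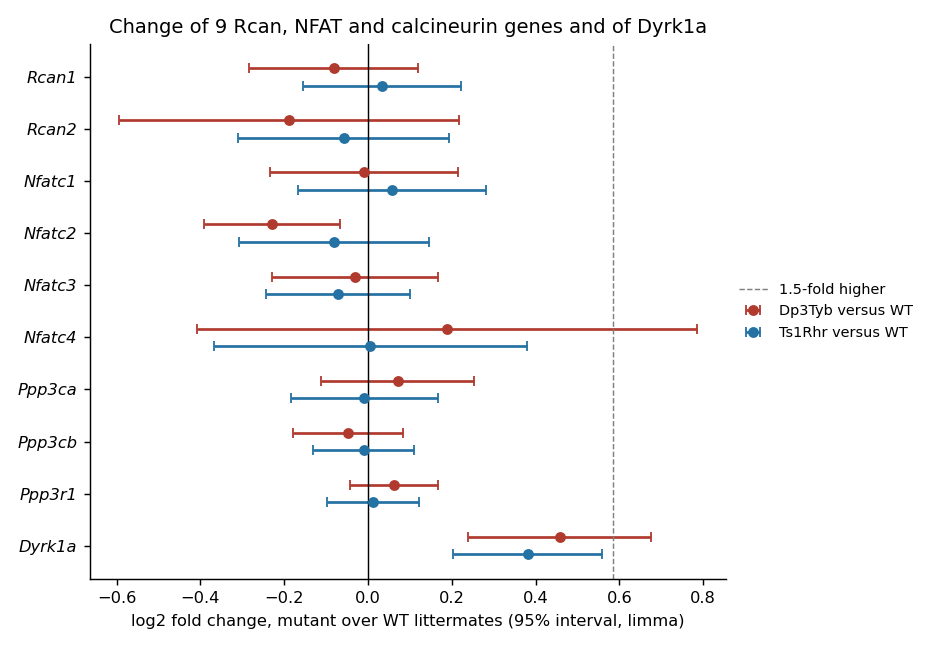
Log2 fold change of each of the 9 genes and of Dyrk1a (x axis) in Dp3Tyb (red) and Ts1Rhr (blue) over their WT littermates, with 95% intervals from limma and a dashed line at 1.5-fold higher. Intervals of 8 genes span 0 in both strains, that of Nfatc2 lies below 0 in Dp3Tyb only, and those of Dyrk1a lie above 0 in both strains; the difference between strains did not pass the test for any of them.

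With all 20 hearts in one fit, both strains were compared with both groups of littermates, with the cohort as a term. This fit uses the same hearts as the comparisons above and is no independent test of them. None of the 9 genes passed (0 of 9, where 0.248% of 15348 genes did), also by DESeq2 and edgeR. Nfatc2 again had the smallest p-value of the 9, with a log2 fold change of -0.16 ± 0.064 (SE) (unadjusted p = 0.0243, adjusted p = 0.501, 8.51% of all genes having an unadjusted p-value under 0.05). It was the only member that passed under any of 31 alternatives. That alternative was a fit with array weights, which give less weight to libraries that scatter, with -0.19 and an adjusted p-value of 0.0384, where 2.85% of all genes passed. Over all 31 the adjusted p-value ran from 0.0384 to 0.720. The intervals of all 9 genes lay within 1.5-fold.

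The change in Dp3Tyb was also set against the change in Ts1Rhr by an interaction contrast. None of the 9 genes passed (0 of 9 past the adjusted threshold by limma, DESeq2 or edgeR, where 0.013% of all genes passed, and 0 of 9 at an unadjusted p-value under 0.05, where 1.52% did). For Nfatc2 the difference was -0.15 ± 0.13 (SE) on the log2 scale (interval -0.41 to 0.12), so the lower level in Dp3Tyb was not shown to be particular to that strain. For Rcan1 the difference was -0.12 ± 0.13 (SE) (-0.38 to 0.15). With the lung and foregut score as a term these differences were 0.0048 for Nfatc2 and 0.033 for Rcan1. Between the WT hearts of the cohorts 0 of 9 passed by limma, DESeq2 or edgeR. Over all genes 0% passed in limma and 5.84% had an unadjusted p-value under 0.05, against 0 of 9 members. The smallest unadjusted p-value was 0.0665, for Ppp3cb.

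Of the other genes of the pathway, 52 in number, 46 were tested in Dp3Tyb and 47 in Ts1Rhr, and none passed the adjusted threshold in either strain in limma. They are other family members, NFAT kinases, binding partners of calcineurin, genes that supply its calcium, and genes known to respond to NFAT. At an unadjusted p-value under 0.05, 2 of 46 were higher and 1 lower in Dp3Tyb (2.8% of all genes in either direction), and 4 of 47 were higher and 1 lower in Ts1Rhr (5.52% of all genes). In the fit of all 20 hearts 49 were tested and 2 passed, where 0.248% of all genes did. Both were higher in the mutants: Dyrk1a, whose extra copy fixes its direction, and Ctsk. The median log2 fold change of the 49 was 0.0029, against 0.0024 for all genes. At an unadjusted p-value under 0.05 in this fit, 8 of the 49 were higher and 1 lower (8.51% of all genes in either direction). The lists were chosen with earlier results of these data known, so these counts are a description.

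Dyrk1a (ENSMUSG00000022897, chromosome 16, 94569947 to 94695519), the NFAT kinase in 3 copies, was the reference for an extra copy. WT-Dp3Tyb hearts had 1820.0, 1866, 1692, 1884 and 2287 and Dp3Tyb hearts 2529, 2491, 2499, 2403 and 3196. WT-Ts1Rhr hearts had 2014, 1996, 1739.5, 2339 and 1837 and Ts1Rhr hearts 2759, 2720.5, 2413, 2552 and 2435. Mutant and WT values did not overlap in either cohort. The log2 fold change was 0.46 ± 0.099 (SE) in Dp3Tyb and 0.38 ± 0.081 (SE) in Ts1Rhr, with adjusted p-values of 0.478 and 0.415 in limma, and 0.0140 and 0.0138 in DESeq2. In the fit of all 20 hearts it was 0.42 ± 0.064 (SE) (adjusted p = 0.00183), and it passed under all 31 alternatives. Being in 3 copies fixes its direction, so its rise is a check of the genotypes.

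Ctsk (ENSMUSG00000028111) encodes cathepsin K, a collagen-cutting protease that NFATC1 is known to switch on in osteoclasts, and it is in 2 copies. Its values were 197, 189, 189, 170.5 and 176 in WT-Dp3Tyb and 216, 236, 270.4, 269 and 246 in Dp3Tyb. They were 184, 165, 176, 142 and 204 in WT-Ts1Rhr and 207, 209, 210.5, 225 and 267 in Ts1Rhr. In both cohorts all 5 mutant hearts lay above all 5 littermates. The log2 fold change was 0.42 ± 0.089 (SE) in Dp3Tyb (adjusted p = 0.440) and 0.36 ± 0.11 (SE) in Ts1Rhr (adjusted p = 0.795), and 0.39 ± 0.068 (SE) over both strains (adjusted p = 0.00741, and at most 0.0462 over 31 alternatives). In Dp3Tyb it passed under 3 of 22 alternatives, with DESeq2 (adjusted p = 0.0132), array weights (0.0319) and the mitochondrial share as a term (0.0354), and in Ts1Rhr under 0 of 23. The other genes of the NFAT-responsive list did not pass, so that 1 of its 7 tested members rose in this fit. Of all genes 0.248% passed in either direction. Because the list was chosen with earlier results of these data known, these shares are a description and no test of NFAT-responsive genes. Macrophages can make cathepsin K too. Their summed markers ran from 1562 to 1929 in Dp3Tyb against 1127 to 1781 in WT-Dp3Tyb, and from 1310.2 to 2063 in Ts1Rhr against 1296 to 1540.4 in WT-Ts1Rhr, and their part in the Ctsk values was not tested.

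The other pathway genes with the smallest p-values in a strain were Dyrk2 in Dp3Tyb and Acta1 in Ts1Rhr. Dyrk2, another kinase of the DYRK family, had a log2 fold change of -0.14 ± 0.062 (SE) in Dp3Tyb (unadjusted p = 0.0483, adjusted p = 0.99996) and -0.037 ± 0.078 (SE) in Ts1Rhr. Acta1 encodes skeletal muscle alpha-actin, which the embryonic heart also makes. Its log2 fold change was 0.57 ± 0.16 (SE) in Ts1Rhr (unadjusted p = 0.00431, adjusted p = 0.795) and 0.29 ± 0.20 (SE) in Dp3Tyb, and its values overlapped in both cohorts. The Dp3Tyb value was 0.17 without WT-Dp3Tyb replicate 5 and 0.47 without Dp3Tyb replicate 5, and the Ts1Rhr value 0.28 with the endothelial score as a term. Over both strains it was 0.43 (adjusted p = 0.255), and it passed only with array weights, 1 of 31 alternatives (0.37, adjusted p = 0.0159), where 2.85% of all genes passed. The remaining genes with an unadjusted p-value under 0.05 in Ts1Rhr were Homer3, with 0.19 ± 0.082 (SE), and the kinase Dyrk1b, with -0.24 ± 0.11 (SE). Both are named outside the rule, after their values were seen. In Dp3Tyb these had log2 fold changes of 0.20 ± 0.15 (SE) and -0.26 ± 0.12 (SE).

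**Figure D4:**
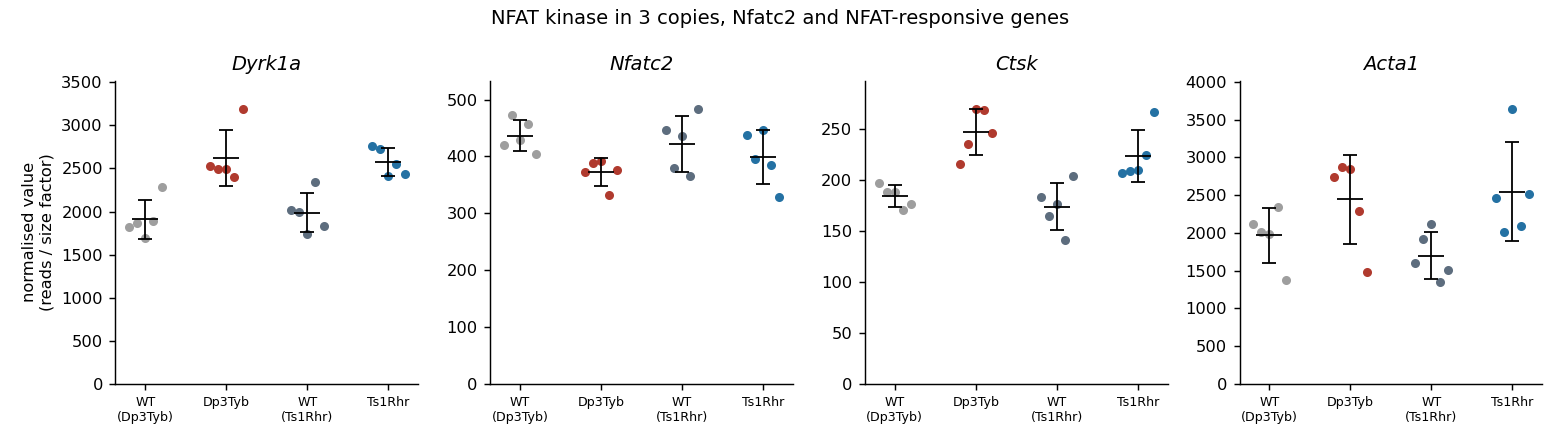
Normalised read counts (y axis, from 0) of Dyrk1a, Nfatc2, Ctsk and Acta1 in the 20 hearts, with 5 points per group and a bar for mean ± SD. Mutant hearts lie above their littermates for Dyrk1a and Ctsk in both cohorts, Dp3Tyb hearts lie below theirs for Nfatc2, and Acta1 overlaps.

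Several members followed the mitochondrial share of the library within their groups. In a fit of 4 group means and a slope on this share over the 20 libraries, 6 of 9 members had an adjusted p-value under 0.05, where 61.4% of all 15348 genes did, so the members' share is near that of the table. Per 10 percentage points of mitochondrial reads the log2 level rose by 0.52 ± 0.056 (SE) for Rcan2, 0.27 ± 0.031 (SE) for Nfatc3, 0.24 ± 0.034 (SE) for Ppp3ca and 0.24 ± 0.064 (SE) for Nfatc1. It had a slope of -0.74 ± 0.11 (SE) for Nfatc4 and -0.097 ± 0.031 (SE) for Ppp3cb. Slopes that did not pass were -0.016 ± 0.071 (SE) for Rcan1, -0.076 ± 0.067 (SE) for Nfatc2 and 0.0021 ± 0.028 (SE) for Ppp3r1.

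The adjusted p-values were 2.4e-08 for Rcan2, 6.7e-08 for Nfatc3, 1.8e-06 for Ppp3ca, 0.00277 for Nfatc1, 9.3e-06 for Nfatc4 and 0.0101 for Ppp3cb. Of these 6, 5 passed again in both cohorts, where 57.8% of all genes passed among the Dp3Tyb and WT-Dp3Tyb hearts and 38% among the Ts1Rhr and WT-Ts1Rhr hearts. Ppp3cb passed in the Dp3Tyb cohort (adjusted p = 0.0248) and not in the Ts1Rhr cohort (0.368). Without the 2 libraries farthest from the median share, WT-Dp3Tyb replicate 5 (19.5%) and WT-Ts1Rhr replicate 4 (17.2%), the slope of Nfatc4 was -0.71 and that of Rcan2 0.47, and that of Ppp3cb no longer passed (adjusted p = 0.120, where 48.4% of all genes passed). The 7 libraries with over 10% mitochondrial reads were spread over all 4 groups. With the mitochondrial share as a term no member passed in either strain, and Nfatc2 in Dp3Tyb was -0.23 (adjusted p = 0.174).

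**Figure D5:**
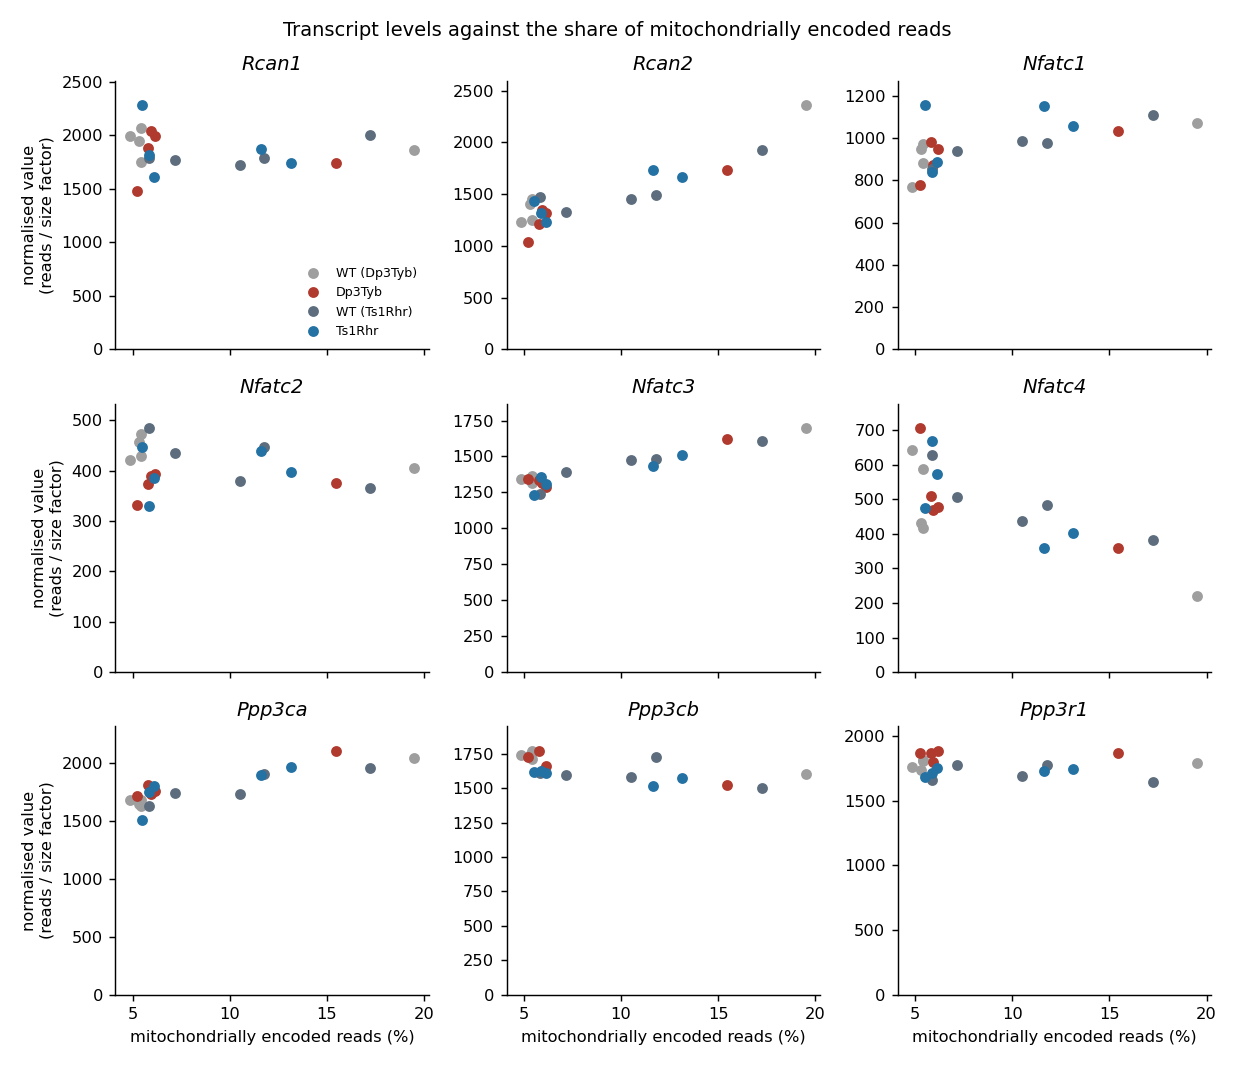
Normalised read counts of the 9 genes (y axis, from 0) against the percent of mitochondrially encoded reads of the library (x axis), with 1 point per heart coloured by group. Rcan2, Nfatc3, Ppp3ca and Nfatc1 are higher and Nfatc4 lower in libraries with a larger share, by a common slope over the 4 groups, while Rcan1 and Ppp3r1 show no slope that passed the test.

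The genes whose pattern was most like that of Rcan1 and Nfatc1 were found from log2 values, each group centred on its own mean, over the 20 libraries and 15347 other genes. For Rcan1 they were Lbh (Pearson's r = 0.92, Spearman's rho = 0.86), a transcriptional cofactor of the developing heart, Ak1 (0.87 and 0.85), Wdr1 (0.86 and 0.81), Ap2m1 (0.85 and 0.80) and Trp53inp2 (0.85 and 0.78). For Nfatc1 they were Bmp7 (0.94 and 0.91), a growth factor of the developing heart muscle, Smyd1 (0.93 and 0.94), a methyltransferase of muscle, Iqsec1 (0.93 and 0.87), the endothelial receptor gene Gpr182 (0.92 and 0.92) and Ece1 (0.91 and 0.87), which encodes an endothelin-converting enzyme. None of the other 8 members was among the 5 genes nearest to Rcan1 or to Nfatc1. These are descriptions with no test: the points share a library, and with it its depth and mitochondrial share.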

How the data were processed

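Total RNA of 20 E13.5 hearts was made into mRNA libraries and sequenced on an Illumina instrument. The authors deposited 1 table of normalised values, a signal in reads divided by a size factor. The submitters' notes name GRCm38 and Trimmomatic 0.36, STAR 2.5.2a, RSEM 1.2.31, DESeq2 and DESeq, with no role given. Annotation and use of strand are not given in the sources used here. Of the deposited values 100% were whole multiples of 1 read (tolerance 0.01). The steps equalled median-of-ratios factors over all 20 libraries, so the cohorts are on one scale. Between cohorts, strain, litter and collection cannot be told apart. Summed erythroid markers ran from 35305.5 to 72079 in WT-Dp3Tyb and from 46570 to 84284.5 in Dp3Tyb. They ran from 66941 to 244259 in WT-Ts1Rhr and from 116265 to 184190 in Ts1Rhr. Symbols and lengths came from GENCODE vM39 (91.3% of identifiers), positions and promoters from RefSeq.

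Groups follow the genotype labels, in which controls carry an initial read as the strain of their littermates. Replicate numbers follow the order of listing and were not used to pair hearts. Nothing states that hearts of a group came from separate litters, so p-values measure the spread between hearts. Because the values are normalised, limma 3.58.1 (R 4.3.3) was fitted to log2(value + 1) with a trended robust prior, to 10 libraries per strain and to 20 for the other contrasts, 2-sided. P-values were adjusted after Benjamini and Hochberg, and 0.05 was the limit for a call. Low genes were left out unless 5 or more libraries had a value of 10. Fold changes of low genes are understated on this scale. DESeq2 1.42.0 and edgeR 4.0.16 on recovered reads, other pseudocounts, filters and scalings, array weights, marker and mitochondrial terms and omitted hearts were alternatives. The fits were tested on simulated data.

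The members and pathway lists were chosen with earlier results of these data known, and the slope on the mitochondrial share was added after seeing the data. Named were all members, Dyrk1a, pathway genes past the threshold, the 3 with the smallest p-value per strain, and the 5 genes most like Rcan1 and Nfatc1. Reads carry no molecular identifiers.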

Additional observations from a re-analysis of the deposited data

Results flagged for a closer look

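Of 44 gene-by-group sets of 5 hearts that were examined, 9 had a heart far from the other 4 of its group, by Dixon's test at its 95% critical value. These were sets of the 9 members, Dyrk1a and Ctsk, and chance alone marks about 1 in 20 such sets. Over all genes that passed the filter in the fit of 20 libraries 15.2% of 61392 such sets had one, and 80.2% of those had it in one of the 3 libraries with the largest mitochondrial shares.

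In WT-Dp3Tyb replicate 5, the library with the largest mitochondrial share (19.5%), Rcan2 stood at 2358 normalised reads (others 1226 to 1457), Nfatc3 at 1697 (others 1312 to 1367) and Ppp3ca at 2043 (others 1628 to 1685). In Dp3Tyb replicate 5, with 15.5%, Nfatc3 stood at 1624 (others 1288 to 1339.7), Ppp3ca at 2106 (others 1714 to 1813) and Dyrk1a at 3196 (others 2403 to 2529). In WT-Ts1Rhr replicate 4, with 17.2%, Rcan1 stood at 2000.1 (others 1721 to 1789) and Rcan2 at 1929 (others 1327 to 1489). Thus 8 of the 9 values came from the 3 libraries with the largest mitochondrial shares. The ninth was Ppp3r1 in Dp3Tyb replicate 2, at 1801, below the other 4 Dp3Tyb hearts (1868 to 1884). The part of the mitochondrial share in these values was not tested beyond the slopes given above.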

How the results depend on the processing

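Of the 9 members, Dyrk1a, Ctsk, Dyrk2 and Acta1, none passed the threshold under one setting with a change in the opposite direction under another in the same comparison. Homer3 and Dyrk1b were not run under the alternatives. The count of members past the threshold stayed 0 of 9 in every comparison and setting, but for both strains together with array weights (1, Nfatc2). The cause of the shifts below was not tested, except that fewer hearts or genes enter where libraries or filters were left out.

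Counts over all genes moved more than the members. In Dp3Tyb 8 genes passed, and 34 with DESeq2, 4 with no filter, 57 with array weights, 45 with the mitochondrial share, 1 with the lung and foregut score, 4 with the endothelial score, 30 without libraries over 10% mitochondrial reads and 17 with all 20 libraries in the fit. In Ts1Rhr 4 passed, and 25 with DESeq2, 16 with array weights, 25 with the mitochondrial share, 0 with the lung and foregut score, 0 with the endothelial score, 0 without libraries over 10% mitochondrial reads, 11 with all 20 libraries and 0 without the Ts1Rhr hearts labelled with heart defects. Over both strains 38 passed, and 170 with DESeq2, 438 with array weights, 327 with the mitochondrial share and 61 without libraries over 10% mitochondrial reads. For the difference between strains 2 passed, and 0 with no filter, TMM scaling, the lung and foregut score or the endothelial score. Between the WT hearts of the cohorts 0 passed in limma (896 at an unadjusted p-value under 0.05) and 0 in edgeR, and 6 with DESeq2, 3297 with array weights and 3 with the mitochondrial share. Leaving out 1 heart at a time gave 2 to 13 in Dp3Tyb (13 without WT-Dp3Tyb replicate 5, 6 without Dp3Tyb replicate 5, and 2 to 4 without any of the others), 1 to 6 in Ts1Rhr (1 or 2 without WT-Ts1Rhr replicates 1 to 4 or Ts1Rhr replicates 1, 4 or 5), 0 to 3 for the difference (2 or 3 without WT-Ts1Rhr replicate 2, Dp3Tyb replicate 3 or Ts1Rhr replicates 3 or 5, and otherwise 0 or 1) and 0 to 2 between the WT hearts (2 without WT-Ts1Rhr replicate 4 and otherwise 0).

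Log2 fold changes that changed sign were all of members or differences that did not pass in any of these settings. With TMM scaling, these were in Ts1Rhr 0.0020 for Ppp3ca and 0.00040 for Ppp3cb. With array weights, these were in Ts1Rhr -0.020 for Rcan1, -0.049 for Nfatc1 and 0.0027 for Ppp3ca, and for the difference between strains 0.0030 for Rcan2, 0.033 for Nfatc1 and -0.11 for Nfatc4. With the endothelial score as a term, these were in Dp3Tyb 0.0069 for Nfatc1, and in Ts1Rhr -0.026 for Rcan1, 0.0028 for Rcan2, 0.014 for Nfatc3, -0.010 for Nfatc4 and 0.11 for Ppp3ca, and for the difference between strains -0.030 for Nfatc3. With the lung and foregut score as a term, these were in Dp3Tyb 0.12 for Nfatc1, 0.016 for Nfatc3 and -0.15 for Nfatc4, and in Ts1Rhr -0.061 for Rcan1, -0.072 for Nfatc1, 0.051 for Ppp3ca and 0.0057 for Ppp3cb, and for the difference between strains 0.033 for Rcan1, 0.13 for Rcan2, 0.19 for Nfatc1, 0.0048 for Nfatc2, -0.34 for Nfatc4 and -0.073 for Ctsk. With the mitochondrial share as a term, these were in Ts1Rhr 0.033 for Rcan2, -0.13 for Nfatc4 and 0.045 for Ppp3ca, and for the difference between strains -0.0036 for Nfatc3. Without libraries over 10% mitochondrial reads, these were in Dp3Tyb 0.0021 for Nfatc1, and in Ts1Rhr 0.017 for Ppp3cb and -0.0023 for Ppp3r1, and for the difference between strains -0.0032 for Nfatc3 and -0.013 for Dyrk1a. Without the Ts1Rhr hearts labelled with heart defects, these were in Ts1Rhr -0.027 for Nfatc1 and 0.017 for Ppp3cb. Leaving out 1 heart at a time, ranges that crossed 0 were in Dp3Tyb -0.075 to 0.050 for Nfatc1, -0.090 to 0.038 for Nfatc3 and -0.054 to 0.33 for Nfatc4, and in Ts1Rhr -0.045 to 0.050 for Ppp3ca, -0.033 to 0.017 for Ppp3cb, -0.11 to 0.11 for Nfatc4, -0.041 to 0.083 for Rcan1, -0.12 to 0.028 for Rcan2 and -0.0021 to 0.027 for Ppp3r1, and over both strains -0.0044 to 0.054 for Nfatc1, -0.063 to 0.014 for Rcan1 and -0.023 to 0.16 for Nfatc4, and for the difference between strains -0.23 to 0.034 for Rcan2, -0.060 to 0.33 for Nfatc4, -0.018 to 0.11 for Nfatc3 and -0.0023 to 0.13 for Ctsk.

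Without a change of sign, Ppp3cb in Dp3Tyb ran from -0.072 without WT-Dp3Tyb replicate 5 to -0.017 without Dp3Tyb replicate 5, and Dyrk2 in Ts1Rhr from -0.16 with the endothelial score to -0.0074 without Ts1Rhr replicate 2. No paired analysis was run, because the labels name no litter or pair and the replicate numbers only follow the order of listing. Whether neighbours in the listing share a litter is not stated. No setting moved the median log2 fold change of all genes by over 0.1. At this depth and spread the 95% intervals of Rcan2, Nfatc2 and Nfatc4 reached past 1.2-fold in both strains.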
